A study of Mus musculus with 12 samples.

Results

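The T cell receptor complex and its proximal signalling genes were examined in mouse T cells by bulk RNA-Seq. From 47 listed genes, the members were those with 10 or more placed counts over all 12 libraries, which gave 23 of the 47 listed genes and 23 of the 5906 genes that reached this count in the series. A placed count is a count of the deposited table whose printed exon positions overlay exons of exactly 1 gene of the mouse build GRCm38 over 50 bp or more (small RNA genes were not considered). That the counts sit at GRCm38 positions is an inference from the files and was not stated by the authors, and every level below rests on it. Under the symbols as printed in the table, Lck had 11 and Lat had 0 counts over the 12 libraries, against 25549 and 10397 placed counts. The reverse held for Ptpn6 (18496 as printed against 154 placed), Nfatc1 (5227 against 2767), Fyb (4898 against 2061), Cd6 (3354 against 127) and Ptpn22 (403 against 108), Themis had 60 under both, and the other members had more placed counts.

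The T cells, labelled as splenic, were WT or PERK-cKO (PERK-KO in the labels). PERK-cKO mice were PERK fl/fl mice on the B6 background that carried CD4-Cre, a recombinase driven by CD4 sequences and active in the T lineage, so cells of other lineages keep PERK. Cells received either allogeneic stimulation with antigen-presenting cells (APCs) of another strain for 4 days or, by the labels, polyclonal stimulation for 3 days with antibodies against CD3 and CD28, with 3 libraries in each of the 4 groups. A second description by the authors gives one duration for both stimulations, so the stimulations may differ in time as well as in kind. The strain of the APCs used for sequencing, the Cre status of the WT mice, the age of the mice and the sex of each library are not given in the sources used here, and the study used animals of both sexes. Nothing says that the libraries of a group came from separate animals, so p-values measure the spread between these libraries, which may be technical.

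The T cell receptor binds peptide on MHC molecules and signals through the CD3 chains, whose tyrosines are phosphorylated by Lck, a kinase carried by the coreceptors CD4 and CD8, and by the related kinase Fyn. Phosphorylated CD3 chains recruit the kinase ZAP-70, which phosphorylates the adaptors LAT and SLP-76 and so assembles the platform that activates calcium, protein kinase C and NF-κB. Phosphatases and ubiquitin-binding proteins restrain these steps, and NFAT factors carry the calcium signal to the nucleus. Alloreactive T cells use the same receptor against foreign MHC molecules, whereas anti-CD3 antibodies engage it whatever its specificity.

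Of the remaining 24 listed genes, 13 had no entry over their exons (Cd2, Cd28, Ctla4, Icos, Pdcd1, Sh2d1a, Bcl10, Rasgrp1, Cblb, Dgkz, Rel, Tcf7 and Bcl11b). Another 11 were overlaid only by entries that also overlay another gene (Cd3d, Cd3e, Cd3g, Cd247, Cd4, Cd8a, Lag3, Plcg1, Dgka, Lef1 and Gata3). The members with the fewest placed counts over all libraries were Themis with 60, Ptpn22 with 108, Cd6 with 127, Ptpn6 with 154 and Cd8b1 with 193. The member with the most was Thy1 with 78452. No listed gene had between 1 and 9 placed counts, so none lay just outside the limit.

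The counts of a member rest on a part of its exons and not on the whole transcript. The longest wholly coding stretches behind 6 of the members that carry the results below are shown, in lower case throughout, as no part of them is singled out, on the sense strand and in GRCm38. The Lck stretch (chr4:129551561-129551636, minus strand) lies in exon 12 of 13, the Zap70 stretch (chr1:36778153-36778291, plus strand) in exon 4 of 13, and the Lat stretch (chr7:126364412-126364460, minus strand) in exon 10 of 12. The Fyb stretch (chr15:6634796-6634916, plus strand) lies in exon 6 of 18, the Ubash3a stretch (chr17:31215101-31215235, plus strand) in exon 4 of 14 and the Nfatc3 stretch (chr8:106108868-106109129, plus strand) in exon 9 of 11.
Lck: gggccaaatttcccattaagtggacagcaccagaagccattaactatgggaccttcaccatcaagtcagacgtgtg
Zap70: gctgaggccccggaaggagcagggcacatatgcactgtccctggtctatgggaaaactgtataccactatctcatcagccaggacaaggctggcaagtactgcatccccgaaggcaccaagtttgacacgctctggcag
Lat: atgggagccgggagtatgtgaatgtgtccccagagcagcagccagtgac
Fyb: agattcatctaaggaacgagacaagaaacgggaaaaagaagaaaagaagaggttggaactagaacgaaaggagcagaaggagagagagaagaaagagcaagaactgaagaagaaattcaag
Ubash3a: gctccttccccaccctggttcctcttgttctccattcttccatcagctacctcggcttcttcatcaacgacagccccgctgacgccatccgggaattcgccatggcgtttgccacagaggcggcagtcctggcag
Nfatc3: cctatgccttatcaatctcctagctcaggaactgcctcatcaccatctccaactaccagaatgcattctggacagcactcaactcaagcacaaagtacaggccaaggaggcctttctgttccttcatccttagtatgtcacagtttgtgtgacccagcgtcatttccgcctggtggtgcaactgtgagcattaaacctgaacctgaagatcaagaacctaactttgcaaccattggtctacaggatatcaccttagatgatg
Coverage of the members by such stretches was uneven. Fyn was overlaid over 480 bp of coding sequence and Zap70 over 649 bp, of which 516 bp were coding. Lck was overlaid over 204 bp and Cd5 over only 56 bp, all in its 3′ untranslated region (UTR). For Nfatc2, 623 of 737 bp were 3′ UTR. For Malt1, 4054 of 4649 bp, summed over its entries, were exons of non-coding transcripts only. An entry can be far longer than the exons it overlay, and the overlaid exons made up 39.7% of the entry for Zap70, 26.4% for Lat, 3.6% for Fyb, 3.0% for Lck and 1.8% for Cd5. Counts on such an entry can hold reads from outside these exons, which was not tested. Strand was not used in counting, so reads of antisense genes were not told apart.

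Total counts were 3132702 to 4631908 per library, of which 1568431 to 2327503 were placed. Levels are placed counts scaled to CPM, the count expected in a library of fixed size, normalised by TMM (trimmed mean of M values) over the 12 libraries. They are compared between libraries and not between genes, since they are not per length. Eif2ak3, which encodes PERK, had 121 to 155 placed counts in PERK-cKO and 167 to 173 in WT libraries after allogeneic stimulation (log2 fold change −0.49, standard error 0.137, edgeR adjusted p = 0.00759), and 76 to 116 and 85 to 152 after polyclonal stimulation (−0.36 with a standard error of 0.190, adjusted p = 0.171 in edgeR). The exons removed by the floxed allele are not given in the sources used here, so these counts do not check the deletion. The WT polyclonal replicate 1 stood apart, with 6.75% and 6.14% of its counts on the entries listed as Filip1l and Esp16, against at most 2.89% and 2.79% in the other 11 libraries. The 4 genes of the Y chromosome that were listed summed to 2097 to 2494 CPM in the WT allogeneic libraries and were at 0 in the other 9. The sex of the cells and the WT allogeneic group therefore cannot be told apart, and this holds for every comparison below that uses this group.

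The genotypes were compared first after allogeneic stimulation. Fold changes are PERK-cKO relative to WT, and a gene was called at a Benjamini-Hochberg adjusted p under 0.05 in edgeR's quasi-likelihood test over all genes that passed the filter on low counts. Of the 23 members, 20 were tested and 12 were called, against 33.0% of all genes tested. Of these 12 members, 11 fell in PERK-cKO libraries, where 14.5% of all genes fell, and 1 rose, where 18.5% of all genes rose. The members tested had a median log2 fold change of −0.41, and all genes tested had a median of −0.02. Cd8b1, Cd6 and Themis did not pass the filter and have no test in this comparison. Under the symbols as printed, 7 of 12 tested were called, 2 higher and 5 lower, and Cd5, Thy1 and Zap70 turned sign (0.12, −2.40 and 0.23). Of the 4 members with entries at least 50% inside the exons, 1 was called, which was lower. Asking also for a log2 fold change beyond 1 left 1 member, which was lower.

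All 3 proximal kinases fell. Lck, which phosphorylates the CD3 chains, stood at 1511, 1317 and 1526 CPM in the WT allogeneic libraries and at 1052, 1035 and 935 in the PERK-cKO allogeneic libraries. The libraries of the 2 genotypes did not overlap, and the log2 fold change was −0.52 (standard error 0.0927, edgeR adjusted p = 8.59e-05). Fyn stood at 265, 266 and 264 CPM in WT and at 178, 201 and 179 CPM in PERK-cKO libraries. Its log2 fold change was −0.51 (standard error 0.101, edgeR adjusted p = 0.000325). Zap70, the kinase that binds phosphorylated CD3 chains, stood at 480, 488 and 491 CPM in WT and at 396, 386 and 352 CPM in PERK-cKO libraries, again without overlap. Its log2 fold change was −0.36 (standard error 0.0897, edgeR adjusted p = 0.00302), the smallest of the kinases.

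Among the adaptors, 1 fell and 1 rose. Lat, the membrane adaptor phosphorylated by ZAP-70, stood at 596, 555 and 532 CPM in WT and at 406, 436 and 377 CPM in PERK-cKO allogeneic libraries. Its log2 fold change was −0.46 (standard error 0.0922, edgeR adjusted p = 0.000348). Fyb, which encodes the adaptor ADAP and links the receptor to integrins, went the other way. It stood at 91.2, 74.2 and 95.7 CPM in WT and at 131, 105 and 126 CPM in PERK-cKO libraries, a difference of 0.47 (log2, with its standard error, SE, of 0.139, edgeR adjusted p = 0.0107). Without WT allogeneic replicate 2, the Fyb change was 0.37 and not called (edgeR adjusted p = 0.0796). Under the symbols as printed it was 0.20 and not called either (edgeR adjusted p = 0.137). Lcp2, which encodes SLP-76, and Skap1 were not called, with log2 fold changes of 0.01 and −0.01.

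Of the surface molecules, Cd5 and Ptprc fell and Thy1 was not called. Cd5, a receptor that dampens signalling, stood at 286, 311 and 279 CPM in WT and at 179, 162 and 159 CPM in PERK-cKO libraries (log2 fold change −0.80, standard error 0.102, edgeR adjusted p = 1.1e-06). Ptprc, which encodes the phosphatase CD45 of all leukocytes, stood at 875, 878 and 864 CPM in WT and at 596, 615 and 680 CPM in PERK-cKO libraries (log2 fold change −0.47, standard error 0.0877, edgeR adjusted p = 0.000175). Both genes separated the genotypes without overlap. Thy1, a surface glycoprotein of mouse T cells, stood at 3909, 4201 and 3958 CPM in WT and at 4406, 4067 and 4002 CPM in PERK-cKO libraries, which overlapped (log2 fold change 0.05, edgeR adjusted p = 0.722).

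Of the negative regulators, Ubash3a and Ptpn6 fell and Ptpn22 was not called. Ubash3a, whose product binds ubiquitin and restrains receptor signalling, stood at 235, 249 and 246 CPM in WT and at 180, 167 and 163 CPM in PERK-cKO libraries (log2 fold change −0.51, standard error 0.102, edgeR adjusted p = 0.000323). Ptpn6, which encodes the phosphatase SHP-1, rested on few counts, 12 to 16 per WT and 1 to 13 per PERK-cKO library. Its levels were 7.55, 9.42 and 7.93 CPM in WT and 5.59, 2.52 and 0.610 CPM in PERK-cKO libraries (log2 fold change −1.39, standard error 0.514, edgeR adjusted p = 0.0407). The call on Ptpn6 was lost under DESeq2 (adjusted p = 0.0783), with the replicate block (edgeR adjusted p = 0.0517) and without any 1 library other than PERK-cKO allogeneic replicate 1, where its log2 fold change ranged from −0.99 to −1.46. Without PERK-cKO allogeneic replicate 1 it was −2.29. Under the symbols as printed it was −0.11 and not called (edgeR adjusted p = 0.438).

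All 3 NFAT factors fell and Nfkb1 was not called. Nfatc1 stood at 192, 197 and 200 CPM in WT and at 107, 116 and 136 CPM in PERK-cKO libraries, a difference of −0.72 (log2, SE 0.116, edgeR adjusted p = 2.87e-05). Nfatc3 stood at 606, 659 and 541 CPM in WT and at 402, 378 and 442 CPM in PERK-cKO libraries, a difference of −0.56 (log2, SE 0.0971, edgeR adjusted p = 6.76e-05). For both, every WT library lay above every PERK-cKO library. Nfatc2 stood at 289, 274 and 278 CPM in WT and at 264, 200 and 200 CPM in PERK-cKO libraries, a difference of −0.33 (log2, SE 0.111, edgeR adjusted p = 0.0232). It was not called under DESeq2 (adjusted p = 0.0524) or when PERK-cKO replicate 2 or 3 or WT replicate 1 or 2 was left out (−0.24 to −0.35), when scaled by the library size of placed counts (edgeR adjusted p = 0.0607) or with a minimum of 10 counts in every library (edgeR adjusted p = 0.0529). Nfkb1, a subunit of NF-κB, had a log2 fold change of −0.08. None of the enzymes and exchange factors was called, with −0.15 for Prkcq, 0.06 for Vav1 and 0.10 for Malt1.

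**Figure D1:**
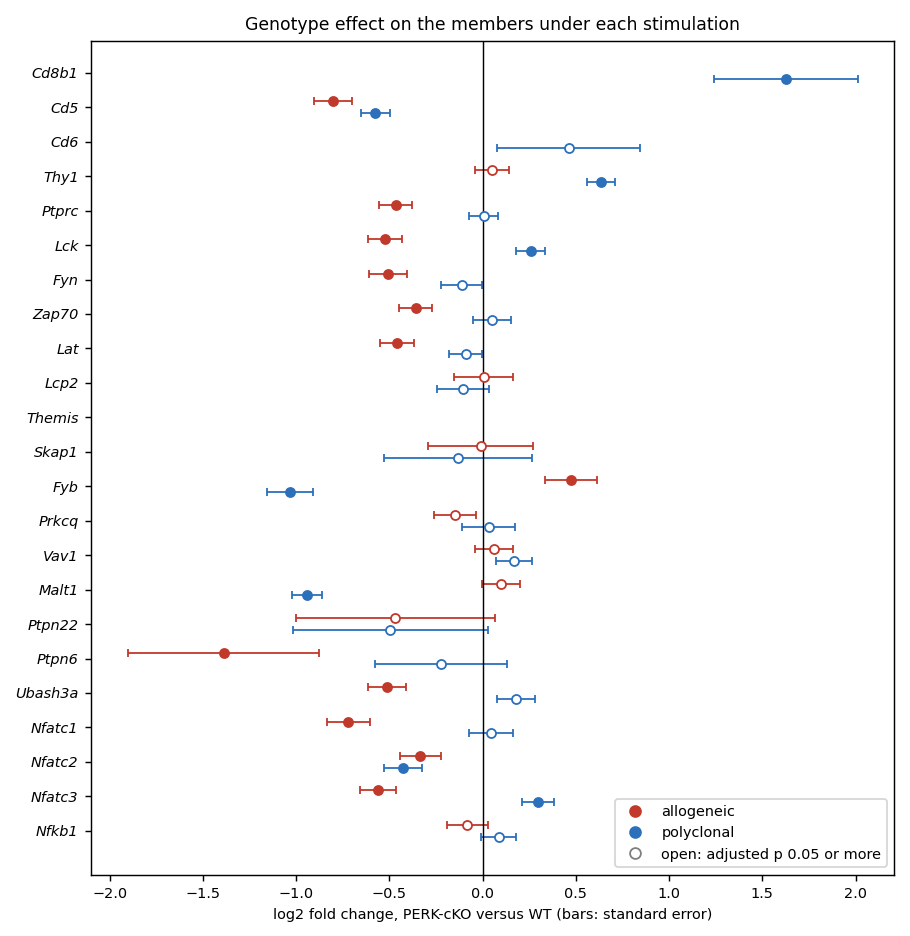
Log2 fold change of PERK-cKO versus WT (horizontal axis, bars give the standard error) for each member (vertical axis) after allogeneic (red) and polyclonal (blue) stimulation, from 3 against 3 libraries. Filled points were called. After allogeneic stimulation 11 of the 12 filled points lie left of 0, and after polyclonal stimulation 4 lie on each side. Members with no point were not tested.

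Markers of some other cell types moved with the same comparison. The summed level of 5 of the 14 macrophage and monocyte genes listed was 234 to 272 CPM in WT and 1610 to 1821 CPM in PERK-cKO allogeneic libraries. For 4 of the 6 basophil and mast cell genes, it was 121 to 133 CPM in WT and 2621 to 2813 CPM in PERK-cKO libraries. The 2 B cell genes placed, of 12, summed to 90.1 to 118 CPM in WT and 193 to 223 CPM in PERK-cKO libraries, and the 3 dendritic cell genes placed, of 9, to 1.77 to 7.93 CPM and 45.6 to 61.6 CPM. The dendritic cell sum moved with Itgax (0 to 3.17 CPM in WT and 40.8 to 54.9 CPM in PERK-cKO libraries). Flt3 (0 to 1.26 and 0 to 1.51 CPM) and Zbtb46 (1.77 to 4.76 and 3.87 to 6.71 CPM) overlapped between genotypes. Ncr1, the 1 NK cell gene of 6 that was placed, was at 0 in WT and at 1.22 to 2.52 CPM in PERK-cKO libraries. It held 2 to 5 counts per PERK-cKO library, near the limit of 3 counts that a count of 0 allows. The erythroid list, with 3 of 6 genes placed, stayed at or below 4.03 CPM, and none of the 7 neutrophil genes was placed. Il7r, which resting and memory T cells express and the 1 naive T cell gene of 7 that was placed, was at 1106 to 1223 CPM in WT and 1148 to 1202 CPM in PERK-cKO libraries. Ikzf2, the 1 regulatory T cell gene of 5 that was placed, was at 135 to 145 CPM in WT and 123 to 162 CPM in PERK-cKO libraries. Of the 9 genes listed for CD8 T cells only Cd8b1, itself a member, was placed, and of the 3 listed for CD4 T cells none. In bulk samples, fewer cells of a type and less RNA per cell cannot be told apart. The part of these other cells in the members' changes was not tested. The CD3 entry described below stood at 1186 CPM or more in all 12 libraries. T cell RNA was thus counted in each, but this level does not give its share.

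The genotypes were next compared after polyclonal stimulation, in cultures to which no APCs were added by the labels. The summed macrophage and monocyte genes were at 102 to 113 CPM in WT and 107 to 139 CPM in PERK-cKO libraries, and the basophil and mast cell genes at 1.04 to 2.49 CPM and 16.3 to 23.9 CPM. The macrophage and monocyte sum was almost wholly Ctss (99.3 to 111 CPM in WT and 104 to 138 CPM in PERK-cKO libraries). In these libraries Lyz2, C1qc and Mrc1 held 0 to 2 counts each. Ikzf2 was at 46.9 to 56.9 CPM in WT and 79.4 to 94.7 CPM in PERK-cKO libraries, which did not overlap, and Il7r was at 1268 to 1387 CPM and 1214 to 1347 CPM, which did. The part of such cells in the members' values was not tested. Of the 23 members, 22 were tested and 8 were called, against 31.8% of all genes tested, so the members' share was near the background. Of the 8 members, 4 rose (Cd8b1, Thy1, Lck and Nfatc3), where 16% of all genes rose, and 4 fell (Cd5, Fyb, Malt1 and Nfatc2), where 15.8% of all genes fell. The median log2 fold change was 0.02 over the members and 0.00 over all genes tested.

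Thy1 stood at 2226, 2190 and 2084 CPM in the WT polyclonal libraries and at 3520, 3325 and 3362 CPM in the PERK-cKO polyclonal libraries, a difference of 0.64 (log2, SE 0.0745, edgeR adjusted p = 1.35e-05). The WT polyclonal libraries were the lowest of all 12 for this gene. Cd8b1, which encodes a chain of the CD8 coreceptor, stood at 7.37, 8.48 and 2.08 CPM in WT and at 23.4, 18.5 and 14.4 CPM in PERK-cKO libraries. These levels rested on 4 to 17 counts in WT and 28 to 53 counts in PERK-cKO libraries, and the log2 fold change was 1.63 (standard error 0.386, edgeR adjusted p = 0.0045). The entry over Cd8a exons, which also overlay Rmnd5a and Gm44174, stood at 162, 158 and 131 CPM in WT and at 180, 181 and 180 CPM in PERK-cKO libraries and was not called (edgeR adjusted p = 0.0753).

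Lck and Nfatc3 rose by less. Lck stood at 876, 974 and 924 CPM in WT and at 1175, 1117 and 1059 CPM in PERK-cKO libraries (log2 fold change 0.26, standard error 0.0790, edgeR adjusted p = 0.0207). Nfatc3 stood at 307, 314 and 316 CPM in WT and at 363, 417 and 385 CPM in PERK-cKO libraries (log2 fold change 0.30, standard error 0.0858, edgeR adjusted p = 0.0146). Neither gene's libraries overlapped between genotypes, yet both calls were lost without WT polyclonal replicate 1 (edgeR adjusted p = 0.15 and 0.0851) or without PERK-cKO polyclonal replicate 2 (0.0597 and 0.0742 by edgeR), and that on Lck also without PERK-cKO polyclonal replicate 1 (edgeR adjusted p = 0.0921). Scaled by library size, Lck was not called (edgeR adjusted p = 0.0525 with placed and 0.109 with all counts), nor was Nfatc3 with all counts (edgeR adjusted p = 0.061). Without WT polyclonal replicate 1, 6 members were called, of which 2 rose and 4 fell.

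Malt1 and Fyb fell the most after polyclonal stimulation. Malt1, the protease that links the receptor to NF-κB, stood at 539, 528 and 522 CPM in WT and at 272, 292 and 272 CPM in PERK-cKO libraries (log2 fold change −0.94, standard error 0.0811, edgeR adjusted p = 7.11e-07). Fyb stood at 97.4, 101 and 107 CPM in WT and at 48.0, 53.1 and 49.9 CPM in PERK-cKO libraries (log2 fold change −1.04, standard error 0.123, edgeR adjusted p = 1.59e-05). The genotypes did not overlap for either gene, and WT was 1.92-fold above PERK-cKO for Malt1 and 2.05-fold above for Fyb. Cd5 stood at 584, 599 and 548 CPM in WT and at 400, 381 and 391.6 CPM in PERK-cKO libraries (log2 fold change −0.58, standard error 0.0795, edgeR adjusted p = 6.4e-05). Nfatc2 stood at 253, 252 and 213 CPM in WT and at 195, 174 and 170 CPM in PERK-cKO libraries (log2 fold change −0.43, standard error 0.100, edgeR adjusted p = 0.00425). Cd5 and Nfatc2 were the members called lower in PERK-cKO libraries under both stimulations.

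**Figure D2:**
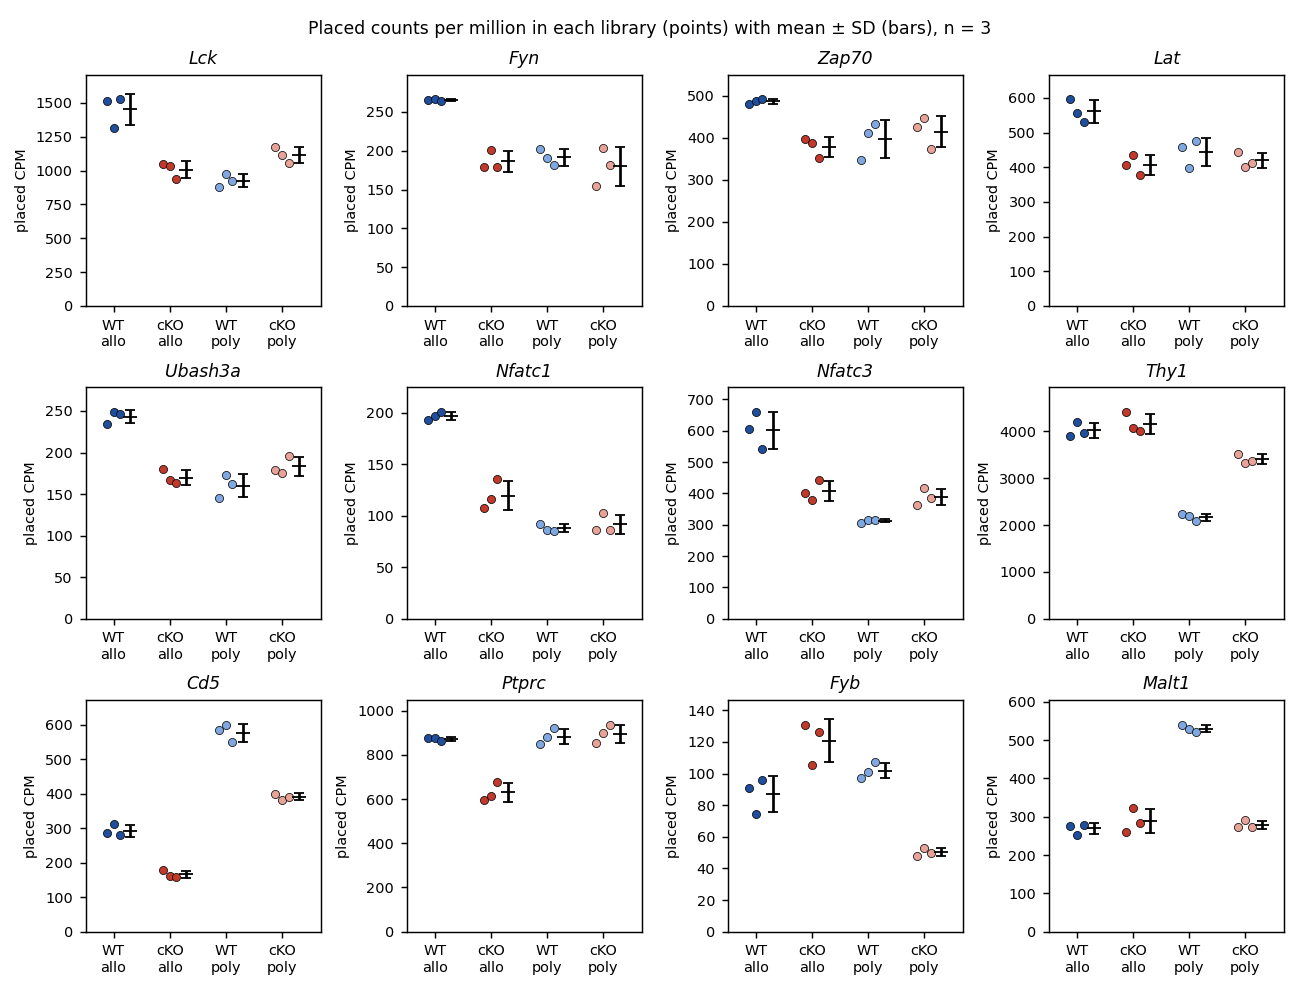
Placed CPM (vertical axis, from 0) of 12 members in each of the 12 libraries (points) by group, with mean ± SD (bars, n = 3). WT allogeneic libraries lie above all others for Lck, Fyn, Zap70, Lat, Ubash3a, Nfatc1 and Nfatc3, and WT polyclonal libraries lie above all others for Cd5 and Malt1 and below all others for Thy1 and Nfatc3.

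Whether the genotype effect differed between the stimulations was tested as an interaction over all 12 libraries, in which a negative value means that the PERK-cKO to WT difference was lower after allogeneic than after polyclonal stimulation. Of the 22 members tested, 13 were called, against 33.9% of all genes tested. Of these, 11 were negative, where 17.2% of all genes were, and 2 were positive, where 16.7% of all genes were. Under the symbols as printed, 4 of 13 were negative and 3 positive, and of the 4 members with entries at least 50% inside the exons 1 was called, which was positive. The members' median interaction was −0.40 on the log2 scale and that of all genes tested was 0.01. The fit uses both genotype comparisons' libraries, so it is no independent support for either.

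The positive interactions were those of Fyb and Malt1. Fyb had an interaction of 1.49 (log2, SE 0.180, edgeR adjusted p = 1.14e-06), and the genotype difference was called upward after allogeneic and downward after polyclonal stimulation. Malt1 had an interaction of 1.02 (standard error 0.129, edgeR adjusted p = 1.93e-06), with 276, 253 and 279 CPM in WT and 259, 323 and 283 CPM in PERK-cKO libraries after allogeneic stimulation. Malt1 thus stood between 253 and 323 CPM in 3 of the groups and between 522 and 539 CPM in the WT polyclonal libraries.

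The largest negative interactions with ample counts were those of Nfatc3 (−0.88, standard error 0.130), Lck (−0.80, standard error 0.118) and Nfatc1 (−0.78, standard error 0.161), with edgeR adjusted p of 1.54e-05, 1.52e-05 and 0.000614. For Lck and Nfatc3, the genotype difference was called in opposite directions under the 2 stimulations. Nfatc1 stood at 92.1, 85.8 and 85.3 CPM in WT and at 85.9, 103 and 86.3 CPM in PERK-cKO polyclonal libraries, which overlapped. Ubash3a (−0.71, standard error 0.138), Thy1 (−0.60, standard error 0.108) and Ptprc (−0.49, standard error 0.111) were also called, with edgeR adjusted p of 0.00035, 0.000151 and 0.00145. In the polyclonal libraries, Ubash3a stood at 145, 173 and 162 CPM in WT and at 179, 175 and 196 CPM in PERK-cKO T cells, and Ptprc at 850, 880 and 920 CPM and at 854, 900 and 935 CPM.

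The interactions of Fyn, Zap70 and Lat were nearer to the threshold. Fyn had −0.41 (edgeR adjusted p = 0.0335), Zap70 −0.43 (edgeR adjusted p = 0.0166) and Lat −0.39 (edgeR adjusted p = 0.0217), with standard errors of 0.147, 0.134 and 0.127. In the polyclonal libraries, Fyn stood at 203, 191 and 181 CPM in WT and at 154, 203 and 181 CPM in PERK-cKO T cells. Zap70 stood at 346, 411 and 432 CPM in WT and at 426, 446 and 373 CPM in PERK-cKO T cells, and Lat at 458, 399 and 475 CPM and at 445, 402 and 414 CPM. All 3 genes overlapped between genotypes there. The call on Fyn was lost without any 1 library other than PERK-cKO polyclonal replicate 1, WT polyclonal replicate 1 or PERK-cKO allogeneic replicate 2 (−0.28 to −0.42). The call on Lat was lost without PERK-cKO polyclonal replicate 1 or 3, WT polyclonal replicate 2, PERK-cKO allogeneic replicate 1 or 3 or WT allogeneic replicate 1 (−0.28 to −0.36). That on Zap70 was lost without PERK-cKO polyclonal replicate 2, WT polyclonal replicate 1 or PERK-cKO allogeneic replicate 3 (−0.34 in each). Under DESeq2, Fyn and Lat were not called either (adjusted p = 0.0872 and 0.0582). The Fyn interaction was also lost under RLE factors, both library-size scalings, no filter, a minimum of 10 counts in every library and an overlap of 100 bp (−0.30 to −0.42, edgeR adjusted p = 0.0620 to 0.119). Those of Zap70 and Lat were also lost when scaled by all deposited counts (−0.40 and −0.37, edgeR adjusted p = 0.0662 and 0.0614) and with 10 counts in every library (−0.31 and −0.27, edgeR adjusted p = 0.0656 and 0.0846).

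Cd8b1 and Cd6 were called on few counts. Cd8b1 had an interaction of −2.21 (edgeR adjusted p = 0.0121) and stood at 7.55, 3.53 and 4.23 CPM in WT and at 3.01, 3.52 and 3.66 CPM in PERK-cKO allogeneic libraries. Without WT allogeneic replicate 1 its interaction was −1.81 and not called (edgeR adjusted p = 0.0670). Cd6, a receptor related to CD5, had an interaction of −2.15 (edgeR adjusted p = 0.0231). It stood at 5.66, 2.94 and 4.76 CPM in WT and at 1.29, 1.01 and 1.83 CPM in PERK-cKO allogeneic libraries, and at 7.37, 5.99 and 7.28 CPM and at 6.17, 8.35 and 14.4 CPM in WT and PERK-cKO polyclonal libraries. No PERK-cKO allogeneic library held more than 3 counts of Cd6, and its call was lost without PERK-cKO polyclonal replicate 3, WT polyclonal replicate 2, PERK-cKO allogeneic replicate 1 or 2 or WT allogeneic replicate 1 (−1.70 to −2.08).

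The levels were then ordered over the 4 groups. WT allogeneic libraries had the highest mean for 12 of the 23 members, and for 8 of these every WT allogeneic library lay above all 9 other libraries (Lck, Fyn, Zap70, Lat, Ubash3a, Nfatc1, Nfatc2 and Nfatc3). The PERK-cKO allogeneic libraries had the lowest mean for 9 members, with all 3 below the other 9 libraries for Cd5, Cd6, Ptprc and Ptpn6. These orders were counted for the members only. Without the share over all genes, they do not show a pattern particular to the members. For Fyn, the other 3 groups stood at 186 ± 13.2, 192 ± 10.9 and 180 ± 24.7 CPM (mean ± SD, n = 3; PERK-cKO allogeneic, WT polyclonal and PERK-cKO polyclonal), so these neighbours differed by less than their spread, while WT allogeneic libraries stood at 265 ± 0.939 CPM (SD, n = 3). Cd5 showed 4 separate levels. They were 577 ± 26.0 CPM in WT polyclonal, 391 ± 9.38 in PERK-cKO polyclonal, 292 ± 16.8 in WT allogeneic and 167 ± 10.7 in PERK-cKO allogeneic libraries (mean ± SD, n = 3).

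**Figure D3:**
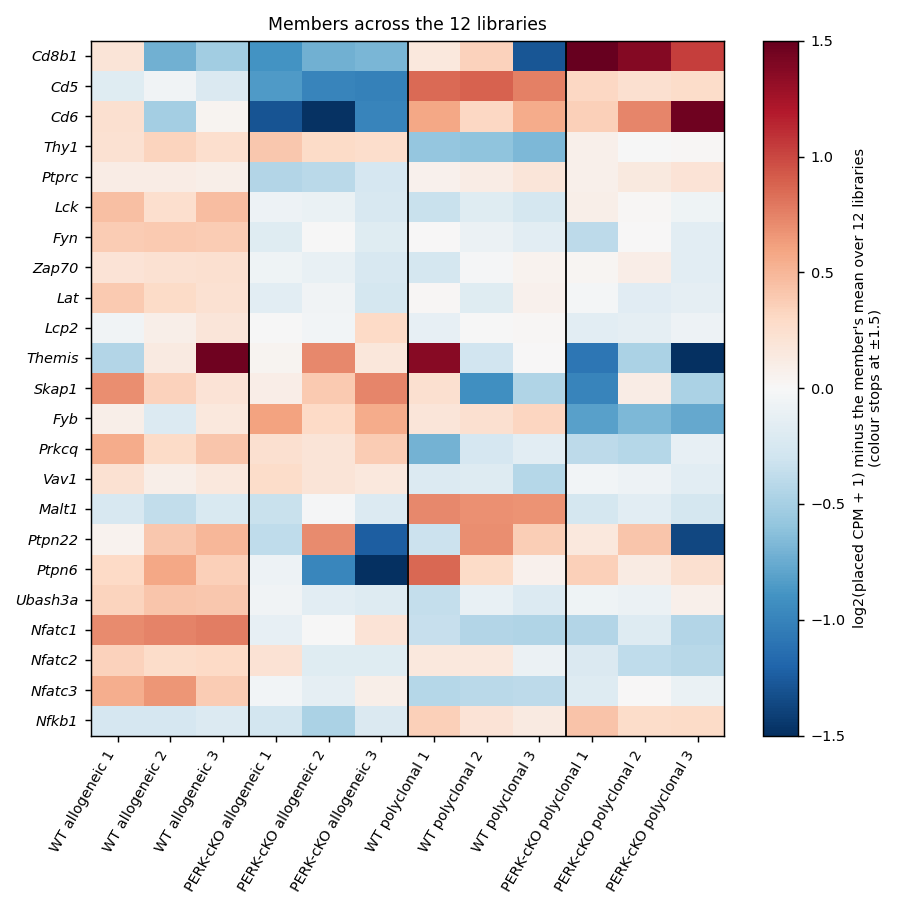
The 23 members (rows) in the 12 libraries (columns, grouped by genotype and stimulation). Colour gives log2(placed CPM + 1) minus the member's mean over the 12 libraries, stopping at ±1.5. The block from Lck to Lat, Ubash3a and the NFAT factors are high (red) in the 3 WT allogeneic libraries, and Cd8b1 is high in the 3 PERK-cKO polyclonal libraries. Themis, Skap1, Ptpn22 and Ptpn6 vary within groups and hold few counts.

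Allogeneic and polyclonal stimulation were compared within each genotype, where stimulation, duration and the presence of APCs cannot be told apart. In WT cells, 13 of 22 members tested were called, against 48.6% of all genes tested. Of these, 10 were higher after allogeneic stimulation, against 24.5% of all genes, and 3 were lower, against 24.1% of all genes. This split turned to 3 higher and 4 lower of 12 tested under the symbols as printed, and to 0 higher and 3 lower of the 4 members whose entries lay at least 50% inside the exons. In PERK-cKO cells, 12 of 21 members tested were called, against 51.4% of all genes tested, with 7 higher, against 27.7% of all genes, and 5 lower, against 23.8% of all genes. There too the split turned, to 3 higher and 4 lower of 12 under the symbols as printed. With entries at least 50% inside the exons it was 0 higher and 2 lower of 4. The members' medians were 0.23 in WT and 0.05 in PERK-cKO cells on the log2 scale, and all genes had medians of −0.02 and 0.00. These comparisons share their libraries with the genotype comparisons.

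All 3 proximal kinases were higher after allogeneic stimulation in WT cells, with log2 fold changes of 0.62 for Lck, 0.44 for Fyn and 0.26 for Zap70 (edgeR adjusted p = 5.37e-05, 0.00103 and 0.0324). None of them was called in PERK-cKO cells, where the values were −0.15, 0.05 and −0.13. The call on Zap70 in WT was lost when any 1 library other than WT polyclonal replicate 3 was left out (0.17 to 0.28 in these fits) and when scaled by the library size of placed or of all counts (edgeR adjusted p = 0.128 and 0.160). It was also lost under the symbols as printed (0.087, edgeR adjusted p = 0.684). Nfatc1 and Nfatc3 were higher in WT by 1.13 and 0.91 (edgeR adjusted p = 6.45e-07 and 2.21e-06). In PERK-cKO cells Nfatc1 was higher by 0.38 (edgeR adjusted p = 0.0211), a call lost without PERK-cKO polyclonal replicate 1 or 3 or PERK-cKO allogeneic replicate 3 (0.30 to 0.34) or when scaled by the library size of placed counts (edgeR adjusted p = 0.0506), and Nfatc3 was not called at 0.07.

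Several members were called in the same direction in both genotypes. Cd5 was lower after allogeneic stimulation, by −1.01 in WT and −1.23 in PERK-cKO cells (edgeR adjusted p = 4.16e-07 and 4.02e-09). Nfkb1 was lower, by −0.51 and −0.66 (edgeR adjusted p = 0.000598 and 3.63e-05). Prkcq, the protein kinase C isoform of the T cell synapse, was higher, by 0.75 and 0.58 (edgeR adjusted p = 0.000548 and 0.000511), as was Vav1, an exchange factor for small GTPases, by 0.40 and 0.31 (edgeR adjusted p = 0.00418 and 0.0135). Thy1 was higher by 0.86 and 0.29 (edgeR adjusted p = 1.25e-06 and 0.00723), and the interaction described above was called for it, so the size differed between genotypes. Malt1 was lower in WT by −1.01 (edgeR adjusted p = 4.18e-07) and not called in PERK-cKO cells at 0.05, whereas Fyb was higher in PERK-cKO cells by 1.26 (edgeR adjusted p = 4.14e-07) and not called in WT at −0.26. Lat and Ubash3a were called in WT cells, at 0.31 and 0.57 (edgeR adjusted p = 0.0137 and 0.000288), and not in PERK-cKO cells, at −0.05 and −0.11. The call on Lat was lost without WT polyclonal replicate 2 (0.23, edgeR adjusted p = 0.0754) and under both library-size scalings (edgeR adjusted p = 0.0512 and 0.0657).

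Other members were called in PERK-cKO cells and not in WT cells. Ptprc was lower after allogeneic stimulation by −0.51 (edgeR adjusted p = 6.83e-05), and Cd8b1 and Cd6 were lower by −2.46 and −2.77 on few counts (edgeR adjusted p = 1.82e-05 and 0.000233). Skap1, an adaptor that partners with ADAP, was higher by 0.88 (edgeR adjusted p = 0.0359) on 14 to 37 counts per library. Nfatc2 was higher by 0.30 (edgeR adjusted p = 0.0424), a call lost without PERK-cKO polyclonal replicate 2 or 3 or PERK-cKO allogeneic replicate 1 (0.16 to 0.27), under DESeq2 (adjusted p = 0.0568) and under both library-size scalings (edgeR adjusted p = 0.0890 and 0.0713). The interaction was called for Ptprc, Cd8b1 and Cd6, and not for Skap1 (0.75 in WT, edgeR adjusted p of the interaction 0.89) or Nfatc2 (0.20 in WT, edgeR adjusted p of the interaction 0.756), so no difference between genotypes was shown for these.

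Where a member rested on several entries, the entries could be set beside each other, in the fit of the entries as listed. The 3 entries over Malt1 exons had log2 fold changes of −1.01, −1.42 and −0.88 after polyclonal stimulation, each called. The stretch behind the second lies wholly inside that of the first, so these are not 3 separate readings. The 3 over Nfatc3 exons had −0.50, −0.43 and −0.57 after allogeneic stimulation, of which −0.43 was not called (edgeR adjusted p = 0.0732). Neither of the 2 over Nfatc2 exons was called there, with −0.28 and −0.58 (edgeR adjusted p = 0.0694 and 0.0805), although their sum was. Both over Fyn exons were called there, with −0.36 and −0.59, but the interaction was called for 1 of them only (−0.59 and −0.09, edgeR adjusted p = 0.0137 and 0.772). The 4 over Ptprc exons did not move together, with −0.57 and −0.71 for a pair that was called after allogeneic stimulation and −0.01 and 0.05 for the others. Their interactions were −0.75 and −0.77 for that pair and 0.45 for another entry, all called (edgeR adjusted p = 6.84e-05, 0.00021 and 0.0362), so the called interactions went both ways. That other entry was also called after polyclonal stimulation, at −0.38 (edgeR adjusted p = 0.00700). The 2 entries over Thy1 exons had −0.61 and 0.08 after allogeneic stimulation, of which the first was called (edgeR adjusted p = 0.047), and −0.20 and 0.64 after polyclonal stimulation, of which the second was called (edgeR adjusted p = 9.42e-06). The 2 over Prkcq exons were called in opposite directions after allogeneic stimulation, 0.46 and −0.43 (edgeR adjusted p = 0.0490 and 0.00843), and in the interaction, 1.15 and −0.76 (edgeR adjusted p = 0.00244 and 0.00416). After polyclonal stimulation they had −0.67, called (edgeR adjusted p = 0.0231), and 0.35, not called. Their sum was called in none of these. The values of Ptprc and Prkcq therefore depend on the entries summed, and with only entries at least 50% inside the exons the interaction of Ptprc was −0.25 and not called (edgeR adjusted p = 0.185).

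Listed genes that shared their entries with other genes were read as entries, which cannot be attributed to either gene. Some members had such entries besides their own, which could go against the member's value after allogeneic stimulation. The entry over Lat and Spns1 had −0.03 and that over Zap70 and 4933424G06Rik had −0.26, neither called (edgeR adjusted p = 0.872 and 0.159). The entry over Skap1 and 2010300F17Rik fell, at −0.77 (edgeR adjusted p = 2.97e-06), where Skap1 itself was not called. An entry over Ptpn6 and 4 other genes rose, at 0.27 (edgeR adjusted p = 0.0237), where Ptpn6 itself fell. The entries over Fyn and Gm16364 and over Nfatc1 and Atp9b fell like the members, at −0.68 and −0.84 (edgeR adjusted p = 9.21e-05 and 5.92e-07). In this fit, 28.9% of all entries tested were called between genotypes after allogeneic and 29.5% after polyclonal stimulation. The CD3 chains come first. A single entry overlay exons of Cd3d and Cd3g, which both encode chains of the receptor complex, and of no other gene. It stood at 2032, 2118 and 2171 CPM in WT and at 1291, 1350 and 1186 CPM in PERK-cKO allogeneic libraries, without overlap. Its log2 fold change was −0.70 (standard error 0.0876, edgeR adjusted p = 5.64e-07). In the polyclonal libraries it stood at 1335, 1377 and 1478 CPM in WT and at 1392, 1285 and 1220 CPM in PERK-cKO libraries, and was not called (−0.12, edgeR adjusted p = 0.275). Its interaction was −0.56 (edgeR adjusted p = 0.000697). The entry over Cd3e and Gm48720 and that over Cd247 and Pou2f1 were not called between genotypes under either stimulation. The 2 entries over Plcg1, which encodes the phospholipase that starts the calcium signal, were lower in PERK-cKO libraries after polyclonal stimulation. The entry shared with Zhx3 had −0.63 and that shared with Top1 and Gm27206 had −0.29 (edgeR adjusted p = 0.000319 and 0.0397). After allogeneic stimulation they had −0.26 and −0.01 and were not called, and neither interaction was called (edgeR adjusted p = 0.137 and 0.194).

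The entry over Cd4, the coreceptor of helper T cells, and P3h3 was lower in PERK-cKO libraries under both stimulations, with log2 fold changes of −0.62 and −0.52 (edgeR adjusted p = 2.52e-05 and 0.000116). The entry over Lag3, an inhibitory receptor, and Ptms was lower after allogeneic stimulation (−0.56, edgeR adjusted p = 3.50e-05) and higher after polyclonal stimulation (0.30, edgeR adjusted p = 0.00925). The entry over Dgka, a kinase that removes diacylglycerol, and Pmel was lower under both (−0.64 and −0.38, edgeR adjusted p = 2.18e-06 and 0.00299), and it was higher after allogeneic than after polyclonal stimulation in WT cells (1.55, edgeR adjusted p = 1.04e-10). The entries over Lef1 and Gata3 (with Gm42449 and with 4930412O13Rik and 9230102O04Rik), transcription factors of T cell development and T helper type 2 cells, were lower after allogeneic stimulation (−0.62 and −0.48, edgeR adjusted p = 0.00102 and 0.00237) and not called after polyclonal stimulation (−0.40 and 0.04). Another entry, over Gata3 and 9230102O04Rik only, had 0.29 after allogeneic stimulation and was not called (edgeR adjusted p = 0.666).

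**Figure D4:**
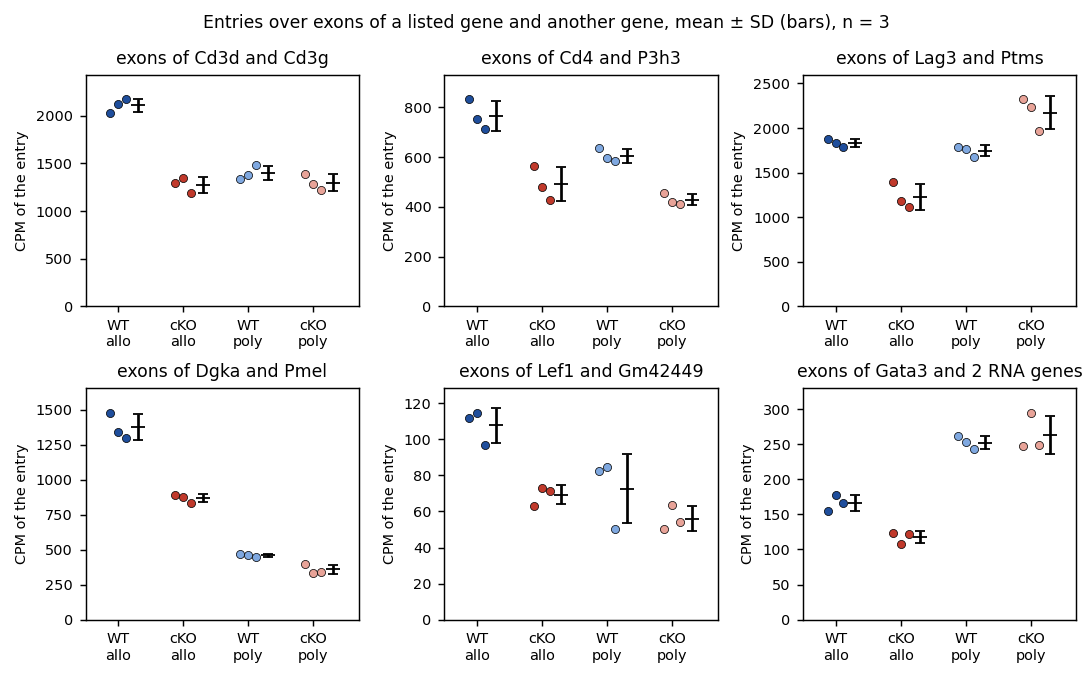
CPM (vertical axis, from 0) of 6 entries that overlay exons of a listed gene and of another gene, in each library (points) with mean ± SD (bars, n = 3). All 3 PERK-cKO allogeneic libraries lie below the 3 WT allogeneic libraries in each panel, and the Dgka and Pmel entry is higher after allogeneic than after polyclonal stimulation.

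Further genes of the pathway, from a list of 94 of which 38 had 10 or more placed counts, were read in the same fits. After allogeneic stimulation 13 of 36 tested were called, 9 higher and 4 lower in PERK-cKO libraries, with a median log2 fold change of 0.01. Over all genes tested, 33.0% were called, 18.5% higher and 14.5% lower, so the share of the list was near the background. The largest increases were those of Rnf128, a ubiquitin ligase linked to T cell anergy (39.3 ± 2.21 in PERK-cKO against 5.82 ± 3.23 CPM in WT, SD, n = 3, log2 fold change 2.71), Fosl1 (1.31) and Havcr2, which encodes TIM-3 (1.07). The largest decreases were those of the surface receptors Slamf6 (51.5 ± 12.6 against 131 ± 12.5 CPM, SD, n = 3, log2 fold change −1.34), Btla (−1.07) and Cd27 (−0.98). After polyclonal stimulation 11 of 35 were called, 5 higher and 6 lower, which was also near the background of 31.8% over all genes tested (16% higher and 15.8% lower). Havcr2 (191 ± 17.04 against 36.2 ± 4.86 CPM, SD, n = 3, log2 fold change 2.38), Nr4a3 (0.86) and Ppp3r1 (0.43) rose the most, and Btla (−1.30), Slamf1 (−1.16) and Grap2 (−0.61) fell the most. Unlike the members, whose calls after allogeneic stimulation were mostly downward, this list had more calls upward than downward there, a difference that was not tested. Of these further genes, 27 of 35 were called between stimulations in WT cells (48.6% of all genes), 25 of 37 in PERK-cKO cells (51.4% of all genes) and 19 of 37 in the interaction (33.9% of all genes).

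The windows of 250 bases before the start sites (RefSeq, GRCm38.p6) were read for 7 of the 8 members whose WT allogeneic libraries lay above all others. The letters TGTGGT (bound by RUNX factors), CCGGAA (ETS) and GGAAAA (NFAT) were searched on both strands. CCGGAA and GGAAAA share the letters GGAA, so a stretch can count for both. RUNX letters were in 2 of the 12 windows of these 7 genes, ETS letters in 1 and NFAT letters in 1, against 14%, 12% and 20.4% of all 32851 windows. The windows that held any belonged to Zap70 and Lck, and 2 of them are shown. The Zap70 window, at chr1:36761548-36761797 on the plus strand, holds ETS letters and, on the other strand, NFAT letters. The Lck window, at chr4:129573642-129573891 on the minus strand, holds RUNX letters. Capitals mark the motif letters.
Zap70: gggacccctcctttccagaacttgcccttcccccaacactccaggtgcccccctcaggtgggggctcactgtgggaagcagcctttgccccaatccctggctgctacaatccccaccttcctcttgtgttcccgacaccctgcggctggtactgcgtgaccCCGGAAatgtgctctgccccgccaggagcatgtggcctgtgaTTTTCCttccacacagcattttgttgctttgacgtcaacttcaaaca
Lck: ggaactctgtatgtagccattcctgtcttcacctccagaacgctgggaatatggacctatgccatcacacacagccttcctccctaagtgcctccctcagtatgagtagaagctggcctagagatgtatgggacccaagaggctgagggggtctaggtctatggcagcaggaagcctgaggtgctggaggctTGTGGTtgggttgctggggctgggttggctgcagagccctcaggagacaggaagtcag
A match describes letters and not binding, and a window without a match says nothing of the factor.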

How the data were processed

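Bulk RNA-Seq of 12 libraries was analysed, 3 in each of 4 groups assigned by their labels. The deposited values are raw, unnormalised counts that the authors made with featureCounts 2.0.1, from read pairs over exons grouped by GENCODE M27 gene symbol (an annotation of GRCm39), ignoring strand. The submitters' processing notes name mm10, and the aligner is not given in the sources used here. Of the 53762 entries, 33927 overlay no exon of GRCm38. The reads were taken to sit at GRCm38 positions, which the authors do not state, and the printed positions were laid, unconverted, on GRCm38 gene models (GENCODE M21), and 13386 entries (50.4% of all counts) were placed on 10703 genes.

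Each comparison was fitted on its own 6 libraries and the interaction on all 12 (filterByExpr, TMM, glmQLFit and glmQLFTest of edgeR 4.0.16 with R 4.3.3, Benjamini-Hochberg adjusted p under 0.05). DESeq2 1.42.0, other scalings, filters and placements, a replicate block and leaving out each library were alternatives. Tables were joined with Python 3.11.15. The fits were tested on simulated data. A described member was called in a genotype comparison or the interaction, or had the largest change of its role group. Members and lists were chosen with earlier results of these data known. The remaining members named with values (Prkcq, Vav1, Nfkb1, Skap1, Lcp2, Ptpn22 and Themis) fall outside this rule and were named after their values were seen. Calls between stimulations among them have no alternatives. Of the further pathway genes, up to 3 called increases and 3 called decreases per genotype comparison were named. Cell type lists covered macrophages, basophils, B cells, dendritic cells, NK cells, neutrophils, erythroid cells and naive, regulatory, CD8 and CD4 T cells. A count of 0 allows up to 3 counts, a limit for counting error only.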

Additional observations from a re-analysis of the deposited data

Results flagged for a closer look

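The interaction test of edgeR over 12 libraries called a genotype effect that differed between the stimulations for 13 members. The calls on Fyn, Lat, Zap70, Cd6, Cd8b1, Ptprc, Thy1 and Nfatc3 were each lost under some alternative. With 10 or more counts in every library 8 of 18 members tested were called, and under the symbols as listed 7 of 13. The difference between the allogeneic and the polyclonal effect was positive on the log2 scale for Fyb (1.49) and Malt1 (1.02). It was negative for Cd8b1 (−2.21), Cd6 (−2.15), Nfatc3 (−0.88), Lck (−0.80), Nfatc1 (−0.78), Ubash3a (−0.71), Thy1 (−0.60), Ptprc (−0.49), Zap70 (−0.43), Fyn (−0.41) and Lat (−0.39). The WT allogeneic libraries, which alone held Y-linked counts, enter each of these values, and the sex of the cells cannot be told apart from that group.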

How the results depend on the processing

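Each count of members called was recomputed under every alternative. The share of all genes called in the same setting is not set beside these counts, except where stated. Asking also for a log2 fold change beyond 1 left 1 member after allogeneic and 2 after polyclonal stimulation, 3 between stimulations in WT, 4 in PERK-cKO cells and 4 in the interaction, and for the further pathway genes 5, 3, 9, 9 and 7. Entries at least 50% inside the exons left only 4 members to test, with 1, 1, 3, 2 and 1 called (all lower except the 1 in the interaction, which was positive), and 2, 2, 5, 6 and 3 further genes. Under the symbols as listed, an entry can overlay another gene than it names. There, 7 of 12 members tested were called in the allogeneic comparison, where 28.9% of all entries were called. In WT cells 7 of 12 were called, in PERK-cKO cells 7 of 12 and in the interaction 7 of 13. Of these, 2, 3, 3 and 3 were higher or, in the interaction, positive. With 10 or more counts in every library, 8 of 18 members tested were called in the interaction. Without 1 library, 9 to 12, 6 to 8, 11 to 13, 8 to 12 and 9 to 12 members were called, and 10 to 13, 9 to 12, 22 to 24, 23 to 25 and 13 to 18 further genes.

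Replicate numbers did not pair the libraries: correlations of deviations between equal numbers were −0.099 to 0.098. With the replicate block, 11, 8, 13, 12 and 13 members were called.

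Under the symbols as listed, signs turned for Cd5 (allogeneic 0.12, interaction 0.78), Cd6 (polyclonal −0.999, interaction 0.040), Thy1 (allogeneic −2.40, polyclonal −2.50, between stimulations in WT −1.53, interaction 0.12), Zap70 (allogeneic 0.23, polyclonal −0.10, interaction 0.35), Ptpn6 (polyclonal 0.28) and Nfatc1 (between stimulations in PERK-cKO cells −0.047). Ptprc after polyclonal stimulation, not called, turned to −0.0015 under DESeq2, −0.0014 under RLE factors, −0.012 with 10 or more counts in every library and −0.15 with entries at least 50% inside the exons. Without 1 library, values that were not called crossed 0 for Ptprc (−0.049 to 0.034), Zap70 (−0.067 to 0.12), Ptpn6 (−0.40 to 0.038) and Nfatc1 (−0.038 to 0.084) after polyclonal stimulation and for Nfatc2 in the interaction (−0.037 to 0.19). Under the symbols as listed, calls were lost without a turn of sign for Fyb (allogeneic 0.20, edgeR adjusted p = 0.137) and Ptpn6 (allogeneic −0.11, edgeR adjusted p = 0.438). The same held for Nfatc3 (interaction −1.26, edgeR adjusted p = 0.179), Zap70 (between stimulations in WT 0.087, edgeR adjusted p = 0.684) and Cd5 (in PERK-cKO cells −0.37, edgeR adjusted p = 0.175). The cause was not tested. Depth limits Cd6, Cd8b1, Ptpn6, Ptpn22, Skap1 and Themis most.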
